A study of Mus musculus with 16 samples.

Results

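Elovl3, Hsd3b5, Susd4, Hao2, Cux2, Bcl6, Trim24 and Srd5a1 are liver genes tied to the pulse pattern of growth hormone that sets in at puberty, or regulators of such genes. They were taken by symbol, and these 8 of the 47719 genes with counts were followed through all 16 RNA-seq libraries. The livers came from wild-type male C57BL/6 mice of 2 ages, called 1-month-old (3 to 4 weeks in the sample labels) and 6-month-old. At each age there were 2 control libraries, 3 libraries made 2 days after and 3 made 6 days after an intraperitoneal injection of 25 mg/kg of diethylnitrosamine (DEN), an alkylating liver carcinogen. Each library was made from pooled RNA of 3 mice, so its value is a mean over animals. The controls carry time point 0. Days after DEN and days of growth therefore cannot be told apart in the 1-month-old mice, which are of an age near puberty.

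Growth hormone reaches the adult male mouse liver in separated pulses and the female liver almost continuously. Each pulse activates the receptor GHR, the kinase JAK2 and the transcription factor STAT5B, and the adult difference between the sexes in liver genes follows from this pattern. BCL6, a transcriptional repressor of higher level in male liver, binds DNA sites that overlap those of STAT5. CUX2, a homeobox factor of higher level in female liver, binds at many sex-biased genes. Elovl3 encodes an elongase of very long fatty acids, Hsd3b5 a steroid-converting enzyme of male liver, Srd5a1 a steroid 5-alpha reductase, and Hao2 a peroxisomal oxidase of hydroxy acids. Susd4 encodes a membrane protein with sushi domains that restrains complement, and Trim24 a coregulator of nuclear receptors.

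RefSeq promoter windows, from 250 bases before to 50 after each start on GRCm38.p6, were found for 7 of the 8 genes, 11 windows in all. They were searched on both strands for TTCNNNGAA, the core read by STAT5 and by BCL6, for ATCGAT, a core read by CUX factors, and for CACGTG, the E-box read by clock factors. No search motif overlapped another in these windows. The windows with a match are shown because they belong to the regulators among the genes, with the matched letters in capitals. They are the 2 start regions of Bcl6, on the minus strand of chr16:23988803-23989102 and chr16:23981234-23981533, and 1 of the 2 of Cux2, on the minus strand of chr5:122047776-122048075.
Bcl6 upstream start: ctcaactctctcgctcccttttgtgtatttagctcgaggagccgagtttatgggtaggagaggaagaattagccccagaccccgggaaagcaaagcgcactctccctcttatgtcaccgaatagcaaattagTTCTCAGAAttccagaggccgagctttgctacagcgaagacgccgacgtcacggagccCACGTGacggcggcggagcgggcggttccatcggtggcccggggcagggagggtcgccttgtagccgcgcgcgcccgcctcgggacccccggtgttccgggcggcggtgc
Bcl6 downstream start: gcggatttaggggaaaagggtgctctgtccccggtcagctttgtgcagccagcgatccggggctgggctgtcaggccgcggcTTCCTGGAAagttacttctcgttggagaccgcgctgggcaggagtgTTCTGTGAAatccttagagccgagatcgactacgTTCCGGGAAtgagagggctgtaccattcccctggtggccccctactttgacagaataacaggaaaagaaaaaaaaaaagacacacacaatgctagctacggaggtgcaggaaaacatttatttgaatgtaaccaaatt
Cux2 downstream start: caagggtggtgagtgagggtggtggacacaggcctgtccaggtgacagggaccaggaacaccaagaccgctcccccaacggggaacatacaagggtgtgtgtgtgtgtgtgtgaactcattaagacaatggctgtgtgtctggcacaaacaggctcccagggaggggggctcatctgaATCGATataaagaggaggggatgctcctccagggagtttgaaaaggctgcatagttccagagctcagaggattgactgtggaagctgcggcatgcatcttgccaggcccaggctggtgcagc
The upstream start of Bcl6 held TTCTCAGAA 118 bases before the start and CACGTG 60 bases before it. The downstream start held TTCCTGGAA, TTCTGTGAA and TTCCGGGAA, which began 168, 122 and 88 bases before the start. Over all 32851 RefSeq windows of this length, 8.30% held TTCNNNGAA, 0.925% held ATCGAT and 7.15% held CACGTG. The 8 windows of the other genes and of the upstream Cux2 start held none of the 3 motifs.

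Total counts per library ran from 19039330 to 34459774. Libraries of a single group differed in circadian genes, and a clock score was used to describe this, the mean log2 CPM (counts scaled to library size) of 9 genes in phase with Dbp minus that of 5 in phase with Arntl. It ran from -2.19 to 4.93 at 1 month and from -0.03 to 4.12 at 6 months. The 3 lowest scores belonged to 1-month-old libraries, control replicate 2 at -0.77, DEN day 2 replicate 3 at -1.72 and DEN day 6 replicate 2 at -2.19. Among markers of other cells, 2 of 4 macrophage, 2 of 4 stellate and 3 of 5 lymphocyte genes were higher at 6 months (adjusted p below 0.1), with none lower, against 12.1% of all genes higher and 10.5% lower. Of 4 sinusoidal endothelial genes 2 were lower, of 6 hepatocyte genes 3, of 5 cholangiocyte genes 1, and of 4 erythroid genes 3 were lower and 1 higher. Of 2 adipocyte genes tested 1 was higher, none of 3 neutrophil genes passed, and Lep was at 0 in every library. Summed hepatocyte markers stood at 40778 to 63929 CPM at 1 month and 41993 to 45143 CPM at 6 months, lymphocyte markers at 1.97 to 4.78 and 4.30 to 8.09 CPM, and endothelial markers at 125 to 205 and 92.8 to 155 CPM. The part of these cells in the results was not tested. In whole liver a change in cell number and a change in RNA per cell cannot be told apart. Of 10 genes that mark fasting, 6 were lower at 6 months and none higher, against 10.5% and 12.1% of all genes. The part of feeding in the results was not tested.

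All 8 genes passed the filter on low counts and were among the 15684 genes tested, Hao2 through the 1-month-old libraries alone. Per kilobase of exon, the median level over the 8 libraries of 1-month-old mice was highest for Hsd3b5 at 97.6 CPM per kb, followed by Elovl3 at 62.8 and Srd5a1 at 26.9. Hao2 at 6.31, Bcl6 at 3.79, Trim24 at 3.14 and Susd4 at 1.23 CPM per kb came next, and Cux2 was lowest at 0.0677. In 6-month-old mice Elovl3 led at 164 CPM per kb, before Hsd3b5 at 135, Srd5a1 at 38.5 and Susd4 at 10.5. Bcl6 stood at 4.50, Trim24 at 2.94, Cux2 at 0.0414 and Hao2 at 0.0401 CPM per kb.

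**Figure D1:**
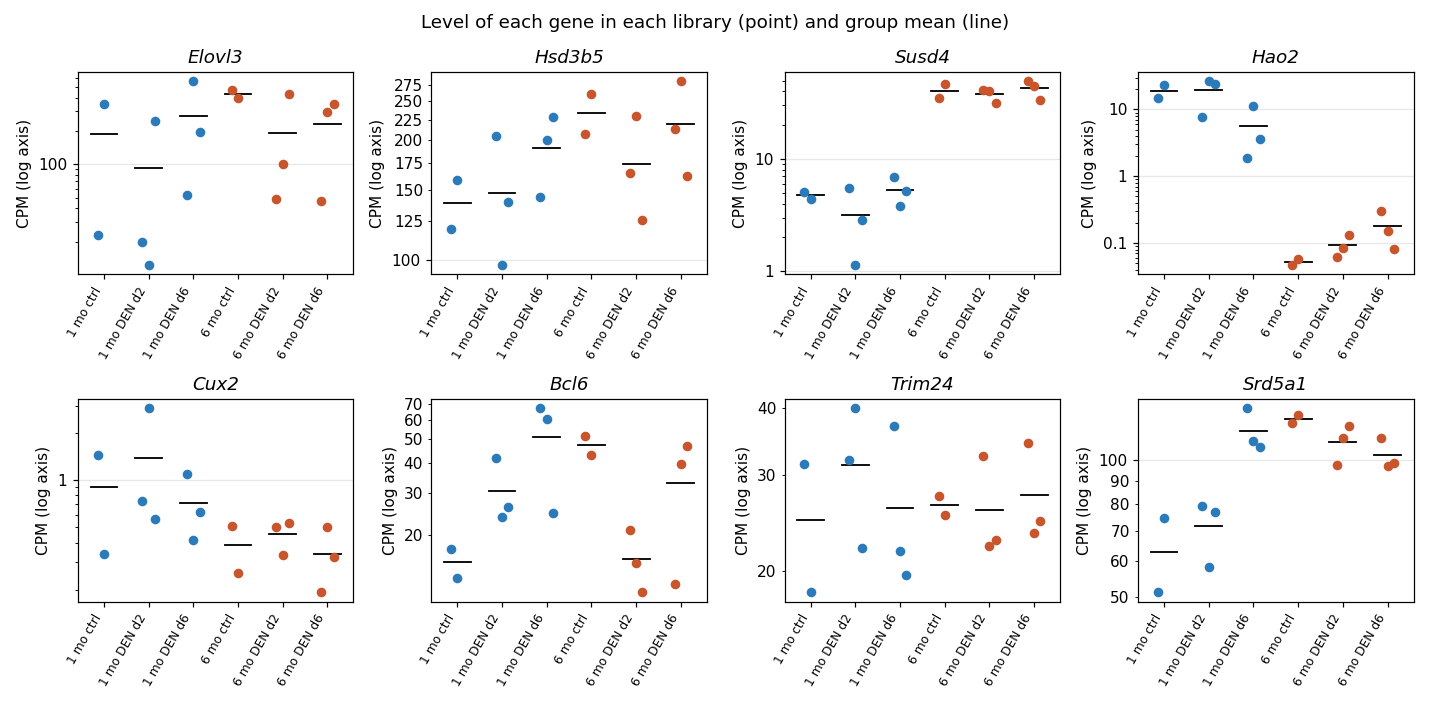
Level of each gene in CPM on a log axis (vertical) in the 6 groups (horizontal), with a point for each library, blue for 1-month-old and orange for 6-month-old mice, and a line at the group mean. Susd4 and Hao2 separate the ages in all 16 libraries, while the points of Elovl3 spread within most groups.

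The age comparison asked which of these genes differed between 1-month-old and 6-month-old liver. Averaged over the 3 conditions, Susd4 was 9.44 times as high and Srd5a1 1.38 times as high at 6 months. Hao2 and Cux2 were lower, Cux2 by 2.49 times and Hao2 by more than any other of the 8. So 4 of the 8 genes passed, with Hao2 in the test through its young libraries alone, against 22.6% of all genes tested (edgeR quasi-likelihood test, Benjamini-Hochberg adjusted p below 0.1). Elovl3, Hsd3b5, Bcl6 and Trim24 did not pass. The median log2 fold change was 0.21 over the 8 genes and -0.01 over all genes. Libraries of the 2 ages did not overlap for 2 of the 8 genes, Susd4 and Hao2, against 3.68% of all genes. The 8 genes were chosen with earlier results of these data known. The shares of all genes, here and below, are therefore given for scale and not as a test of the 8 genes.

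Susd4 was low in every 1-month-old library. Its counts were 133 and 129 in controls, 119, 31 and 65 at day 2, and 144, 101 and 133 at day 6. In old mice they were 747 and 1635 in controls, 1309, 958 and 959 at day 2, and 1289, 890 and 1257 at day 6. The CPM lay between 1.13 and 6.91 in young and between 31.8 and 49.5 in old libraries, so the lowest old library stood well above the highest young library. The log2 fold change was 3.24 ± 0.24 (SE; adjusted p = 1.07e-06, edgeR). It was 3.10 in controls, 3.60 at day 2 and 3.01 at day 6, with edgeR adjusted p of 0.00348, 0.000175 and 0.000775. In the order of group means, the step from 1-month-old day 6 to 6-month-old day 2 was the only one without overlap, and within an age neighbouring groups overlapped.

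Hao2 ran the opposite way and was close to the limit of detection at 6 months. Its counts in 1-month-old mice were 381 and 688 in controls, 169, 730 and 548 at day 2, and 39, 299 and 93 at day 6. In old mice they were 1 and 2 in controls, 2, 2 and 4 at day 2, and 8, 3 and 3 at day 6. The lowest young library, at 1.87 CPM, was thus above the highest old library, at 0.307 CPM. From summed counts the 1-month-old level was 363 times the 6-month-old level in controls, with an exact 95% counting interval from 124 to 1764. The ratio was 216 at day 2 (109 to 501) and 35.1 at day 6 (20.7 to 64.7), and these intervals cover counting error only. The fitted log2 fold change over all conditions was -7.00 ± 0.53 (SE; adjusted p = 1.12e-06, edgeR), a value that depends on the prior count at such low levels. Hao2 reached the level asked by the filter on low counts in all 8 young and in 0 old libraries, so its age tests are not independent of the filter, and the counts above are given as the description.

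Srd5a1 was lower in 1-month-old mice in controls and at day 2 but not at day 6. Its level in 1-month-old controls was 51.3 and 74.6 CPM, and 62.9 ± 16.5 CPM on average (SD, n = 2). At day 2 it was 71.6 ± 11.5 CPM (SD, n = 3) and at day 6 it was 116 ± 12.5 CPM (SD, n = 3). In old mice it was 123 ± 3.54 CPM in controls (SD, n = 2), 110 ± 10.9 at day 2 and 102 ± 8.04 at day 6 (SD, n = 3 each). All 5 young libraries of controls and day 2 were below every old library, whereas the 3 young libraries of day 6, at 107 to 130 CPM, overlapped with the old range of 97.2 to 126 CPM. The log2 fold change with age was 0.47 ± 0.10 over all conditions (SE; adjusted p = 0.00493, edgeR). It was 0.97 in controls and 0.61 at day 2, with edgeR adjusted p of 0.024 and 0.0455, and -0.17 at day 6, with an adjusted p of 0.661. The call in controls was lost when young control replicate 1 was left out (adjusted p = 0.141, edgeR), and likewise for old control replicate 1 (0.107) and old control replicate 2 (0.123). The call at day 2 was lost without 1-month-old DEN day 2 replicate 2 (adjusted p = 0.177, edgeR) and without 6-month-old DEN day 2 replicate 3 (0.179). With only the groups compared in the fit, neither call was kept (adjusted p = 0.178 in controls and 0.126 at day 2, edgeR). Srd5a1 lies at chromosome 13 between 69573449 and 69611442 on the minus strand, inside the span of Nsun2 on the other strand, which had 1612 to 3328 counts. The strand setting of the counting was not known, so reads of the stretches shared with Nsun2 cannot be told apart. Gm17108, with 45 to 138 counts, overlaps Srd5a1 on the same strand, where no strand setting would separate reads. Hsd3b5 lies inside the span of Zfp697 (61 to 148 counts) and Bcl6 overlaps Gm37419 (3 to 29 counts), both on the other strand.

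Cux2 was counted at low depth in every library. The counts in 1-month-old mice were 38 and 10 in controls, 16, 79 and 13 at day 2, and 23, 11 and 16 at day 6. In 6-month-old mice they lay between 5 and 16. The 1-month-old median was 0.683 CPM and the 6-month-old median 0.417 CPM, and the ages overlapped. The log2 fold change with age was -1.32 ± 0.43 over all conditions (SE; adjusted p = 0.0501, edgeR). The call rested on few libraries, with an adjusted p of 0.234 when young control replicate 1 was left out and of 0.152 when old control replicate 2 was (edgeR). No single condition passed in the reported fit, with log2 fold changes of -1.26, -1.61 and -1.08 in controls, at day 2 and at day 6. At day 2 Cux2 passed under an alternative. Its log2 fold change ran from -1.99 to -0.50 when single libraries were left out. Of the day 2 libraries, 1-month-old replicate 2 held 79 counts. The others of its group held 16 and 13, and the old ones 8 to 16, so the day 2 value leans on that library.

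Within single conditions the age calls were 3 of 8 in controls against 2.67% of all genes, 3 of 8 at day 2 against 5.90%, and 2 of 8 at day 6 against 4.47%. Each count includes Hao2, which was in the test through its young libraries alone. Susd4 was higher and Hao2 lower in each of the 3, and Srd5a1 was the gene that passed in controls and at day 2 only. Whether the age difference of Srd5a1 itself differed between conditions is tested with the responses to DEN.

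**Figure D2:**
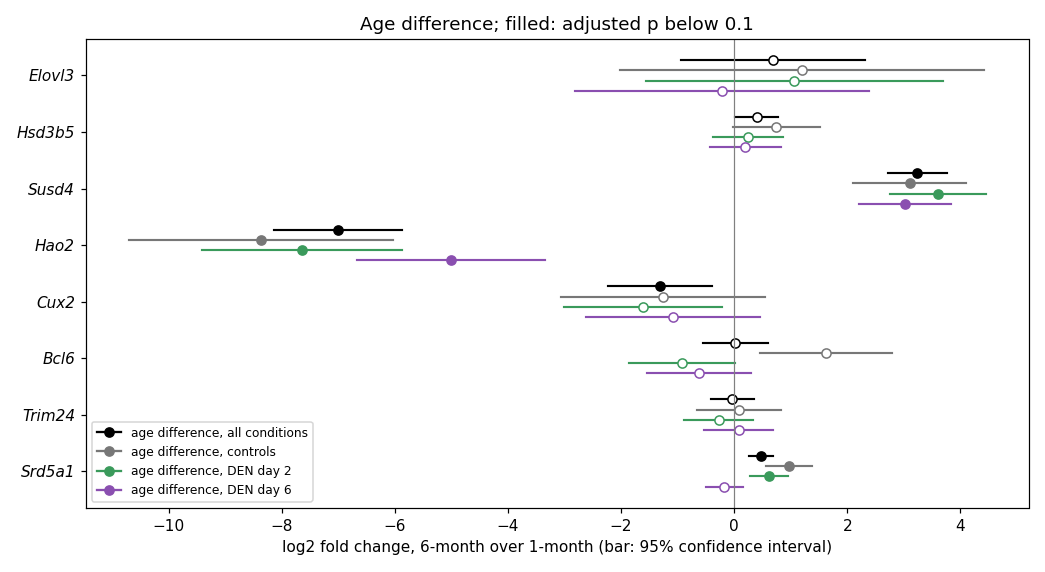
Log2 fold change of 6-month-old over 1-month-old liver (horizontal) for each gene (vertical), over all conditions and within controls, DEN day 2 and DEN day 6. Bars are 95% confidence intervals and filled points passed an adjusted p of 0.1. The intervals of Susd4 and Hao2 lie away from 0 in each comparison, and those of Elovl3 are the widest among the genes read at over 300 counts in every library.

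Elovl3 varied more within groups than between ages. In 1-month-old mice it was 23.1 and 353 CPM in controls, 19.8, 12.3 and 245 CPM at day 2, and 52.8, 563 and 195 CPM at day 6. In old mice it was 465 and 399 CPM in controls, 48.1, 101 and 429 CPM at day 2, and 46.6, 297 and 351 CPM at day 6. The highest and lowest young libraries stood 45.9 times apart, and the 3 libraries of lowest clock score held the highest value of each young group. Over all conditions the log2 fold change with age was 0.68 ± 0.76 (SE; adjusted p = 0.603, edgeR). Elovl3 fell by 0.67 ± 0.06 on the log2 scale for each unit of clock score in a fit beside the 6 groups (SE; adjusted p = 6.69e-06, edgeR). In liver its transcript is known to cycle over the day.

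With the clock score as a covariate, Elovl3 was 1.48 higher on the log2 scale at 6 months (adjusted p = 0.000553, edgeR). In that fit 5 of the 8 genes passed over all conditions against 29.9% of all genes, 4 in controls against 5.37%, 4 at day 2 against 12.1% and 2 at day 6 against 8.39%. The additional gene was Elovl3 each time, with 2.18 in controls and 1.62 at day 2 on the log2 scale, and it did not pass at day 6. Leaving out the 3 libraries of lowest score instead gave an age difference of 2.90 on the log2 scale over all conditions. All 3 were 1-month-old and held the highest Elovl3 value of their group. Leaving them out therefore raises the difference by construction, and the value is not separate support. The score is taken from the same libraries, and the hour at which livers were taken was not used here.

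Of the 8 genes, 3 had a slope on the clock score, against 23.6% of all genes. Trim24 rose by 0.12 ± 0.03 per unit (SE; adjusted p = 0.0105, edgeR) and Hao2 fell by 0.19 ± 0.07 on the log2 scale per unit (SE; adjusted p = 0.0673, edgeR). Susd4 (adjusted p = 0.236), Srd5a1 (0.534), Cux2 (0.154), Hsd3b5 (0.919) and Bcl6 (0.934) did not pass. Over the 16 libraries the log2 CPM of Elovl3 and Trim24 had a Pearson r of -0.79, and -0.89 and -0.67 within the 8 libraries of 1-month-old and of 6-month-old mice. These correlations are descriptions over shared libraries.

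**Figure D3:**
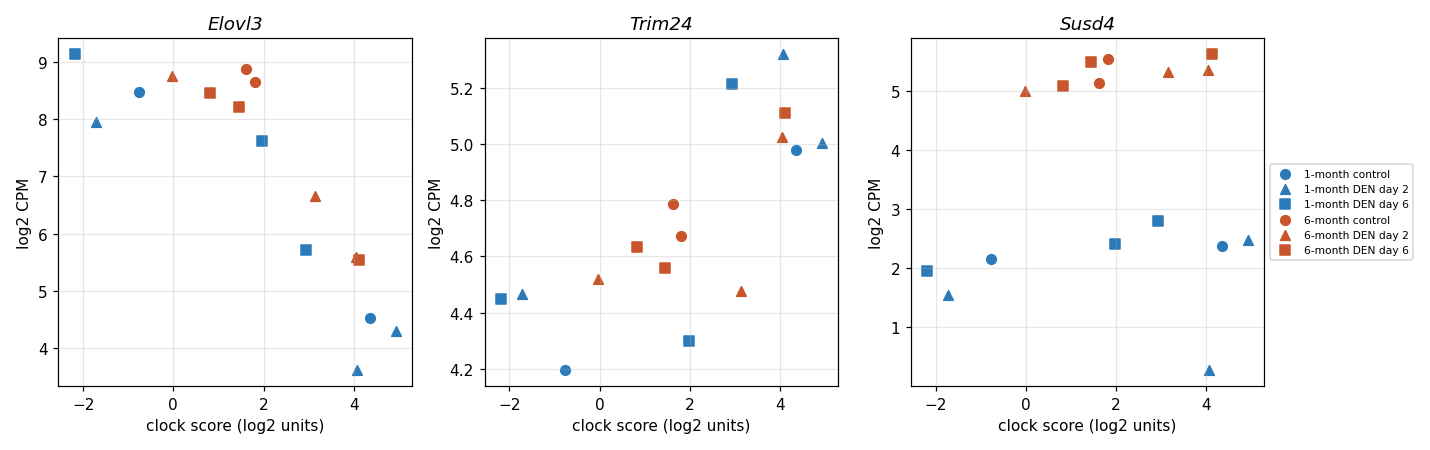
Log2 CPM (vertical) of Elovl3, Trim24 and Susd4 against the clock score of each library in log2 units (horizontal), with blue for 1-month-old and orange for 6-month-old mice and shapes for control, DEN day 2 and DEN day 6. Elovl3 declines with the score at both ages, and Susd4 stays split by age over the whole range.

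Hsd3b5, Bcl6 and Trim24 did not pass in the age comparisons of the edgeR fit as reported, and Hsd3b5 and Bcl6 passed under some alternatives. Hsd3b5, which has close relatives in the Hsd3b family with which reads may be shared, had a median of 151 CPM at 1 month and 210 CPM at 6 months, with overlapping ranges of 97.0 to 228 and 126 to 281 CPM. Its log2 fold change was 0.39 ± 0.18 (SE; adjusted p = 0.16, edgeR), and it passed over all conditions without the filter on low counts (adjusted p = 0.0412) and without 1-month-old DEN day 2 replicate 1 (0.0627). Trim24 lay between 18.2 and 39.9 CPM in young and between 22.2 and 34.5 CPM in old libraries, with a log2 fold change of -0.04 and a 95% confidence interval from -0.41 to 0.34. Bcl6 averaged to a log2 fold change of 0.02, but with opposite signs in the conditions, 1.62 in controls, -0.93 at day 2 and -0.63 at day 6. Its adjusted p in controls was 0.191 (edgeR). It passed there without the filter (0.00149), by DESeq2 (0.0485), with only the groups compared (0.0659) and without 6-month-old DEN day 6 replicate 1 (0.0821). The value without the filter lay below the unadjusted p of the reported fit, 0.00958 (edgeR), so that setting changed the fit itself. At day 2 Bcl6 also passed under an alternative, in the other direction, with log2 fold changes from -1.19 to -0.66 over the settings.

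The DEN comparisons asked how the genes stood 2 and 6 days after the injection at each age. None of the 8 genes passed in any of them by edgeR. In 1-month-old mice this was 0 of 8 at day 2 and 0 of 8 at day 6, against 0.0191% and 0% of all genes. In old mice it was 0 of 8 at day 2 and at day 6, against 0.319% and 0.249%. Day 6 against day 2 gave 0 of 8 at both ages, against 0.00638% in young and 0.0128% in old mice. With so few calls over all genes, these counts bear little on the 8 genes. At an unadjusted p below 0.05 there were 3 genes at day 6 in 1-month-old mice against 2.72% of all genes, and these were Srd5a1, Bcl6 and Hao2. There were 2 for day 6 against day 2 in 1-month-old mice (Srd5a1 and Hao2, against 5.06%), and 1, Bcl6, at day 2 and for day 6 against day 2 in 6-month-old mice, against 4.01% and 1.72%. At day 2 in 1-month-old mice and at day 6 in 6-month-old mice there were 0, against 7.16% and 2.99%. By DESeq2, Srd5a1 was the 1 gene called at day 6 and for day 6 against day 2 in 1-month-old mice, among 19 and 31 of all genes. In the other 4 comparisons 0 were called. All genes gave 86 there at day 2 in young mice, 116 and 78 at day 2 and day 6 in old mice, and 3 for day 6 against day 2 in old mice.

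These values were read against the same 2 young controls that enter the age comparison, so the age and DEN values are not independent. Srd5a1 at day 6 was above both young controls in each of its 3 libraries, with a log2 fold change of 0.88 ± 0.18 (SE) and a 95% confidence interval from 0.50 to 1.26. Its adjusted p was 0.569 by edgeR and 0.00769 by DESeq2. Hao2 at day 6, at 1.87, 11.2 and 3.66 CPM, was below both young controls, at 14.6 and 23.4 CPM, with a log2 fold change of -1.75 ± 0.57 (SE; adjusted p = 1, edgeR). It was still above every 6-month-old library. The comparisons at both days share the 2 young controls.

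Bcl6 varied after DEN at both ages, without passing the test at either. In 1-month-old mice it was 17.6 and 13.3 CPM in controls, 41.6, 23.7 and 26.1 CPM at day 2, and 67.2, 60.8 and 24.7 CPM at day 6. In old mice it was 51.8 and 43.2 CPM in controls, 21.0, 15.4 and 11.6 CPM at day 2, and 12.5, 39.3 and 46.8 CPM at day 6. All 6 young libraries after DEN were thus above both young controls, and the 3 old libraries of day 2 were below both old controls. The log2 fold change in 1-month-old mice was 0.98 ± 0.50 at day 2 and 1.72 ± 0.51 at day 6 (SE), with edgeR adjusted p of 0.726 and 1. In old mice it was -1.57 ± 0.48 at day 2 (SE; adjusted p = 0.544, edgeR) and -0.53 ± 0.47 at day 6.

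**Figure D4:**
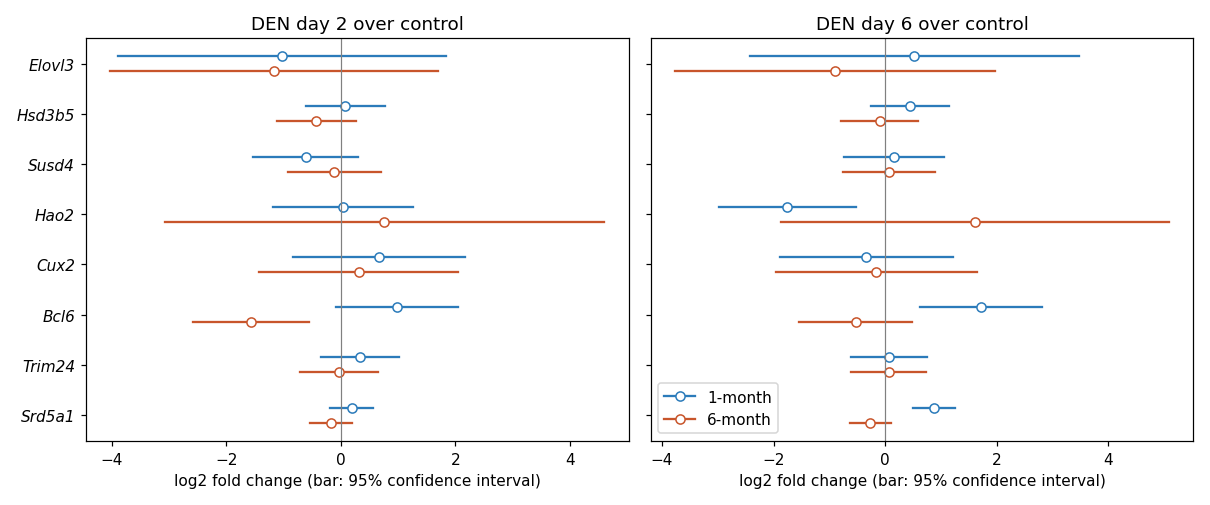
Log2 fold change over the controls of the same age (horizontal) for each gene (vertical) at day 2 and day 6 after DEN, in blue for 1-month-old and orange for 6-month-old mice, with 95% confidence intervals. Open points did not pass an adjusted p of 0.1, as was the case for all 32 values. The points of Bcl6 fall on opposite sides of 0 at the 2 ages.

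The other 5 genes stood close to their controls or varied widely after DEN. Susd4 differed from controls by -0.61 at day 2 and 0.16 at day 6 on the log2 scale in 1-month-old mice and by -0.12 and 0.07 in 6-month-old mice, and the widest of the 95% confidence intervals, at day 2 in young mice, ran from -1.53 to 0.30. Trim24 differed by 0.33 and 0.07 in young and by -0.03 and 0.06 in old mice. Hsd3b5 differed by 0.08 and 0.45 in young and by -0.43 and -0.09 in old mice. Elovl3 differed by -1.02 and 0.53 in young and by -1.16 and -0.90 in old mice. Its confidence interval at day 2 in 1-month-old mice ran from -3.89 to 1.84, so neither a large fall nor a smaller rise was excluded. Cux2 gave 0.67 and -0.33 in young and 0.31 and -0.16 in old mice, at standard errors of 0.70 to 0.84.

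The difference between the ages in the response to DEN was tested for each day and jointly for both. None of the 8 genes passed at day 2, at day 6 or jointly by edgeR, against 0.00638%, 0.0128% and 0.00638% of all genes. At an unadjusted p below 0.05 there were 1, 2 and 2 genes, against 4.46%, 1.91% and 2.37% of all genes. By DESeq2 there were 0, 1 and 1, among 4, 11 and 16 of all genes. Bcl6 had differences of -2.55 ± 0.70 at day 2 and -2.25 ± 0.69 at day 6 (log2, 6-month-old minus 1-month-old; SE), with edgeR adjusted p of 0.943 and 1. Srd5a1 had a difference of -1.14 ± 0.25 at day 6 (SE), with an adjusted p of 0.866 by edgeR and 0.0371 by DESeq2. Without the filter on low counts, edgeR called Bcl6 at both days and Srd5a1 at day 6, with adjusted p of 0.00135, 0.00541 and 0.076. That setting called 23 of all genes at day 2 and 22 at day 6. Its adjusted p for Bcl6 lay below the unadjusted p of the reported fit, 0.0025 at day 2 and 0.00567 at day 6 (edgeR). The setting thus changed the fit itself and not the adjustment alone, and DESeq2 did not call Bcl6 at either day.

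Other genes of the pathway were taken from lists by role. Like the genes above, the lists were chosen with earlier results of these data known. For every list, here and below, the shares of all genes are therefore given for scale and not as a test. Among 24 genes of growth hormone signalling, 7 were higher at 6 months, against 12.1% of all genes, and 5 were lower, against 10.5%, with a median log2 fold change of -0.05. The receptor Ghr (-0.02) and the transcription factors Stat5a (-0.03) and Stat5b (-0.18) did not pass. Among the genes of smallest p were Igfbp3 and Igfals, whose proteins carry IGF1 in blood, and Socs1, an inhibitor of JAK kinases. Igfbp3 lay between 26.0 and 45.1 CPM in young and between 8.63 and 20.2 CPM in old libraries, with a log2 fold change of -1.45 ± 0.15 (SE; adjusted p = 2.27e-05, edgeR). Igfals was lower as well, at -0.66, and Socs1 was higher, at 1.59 (log2).

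Of 24 other male-biased genes, 9 were higher at 6 months and 1, Keg1, was lower (-0.48), against 12.1% and 10.5% of all genes, with a median log2 fold change of 0.38. Within single conditions, 2.67% of all genes passed in either direction in controls, 5.9% at day 2 and 4.47% at day 6. The median of the list was 0.53 in controls, with 8 higher and none lower. It was 0.46 at day 2, with 8 higher and none lower, and -0.10 at day 6, with 6 higher and 1 lower. The 4 of smallest p were Nat8, an N-acetyltransferase gene, at 4.02, Mup20, the male urinary pheromone, at 2.54, Mup21 at 2.37 and Cyp7b1, an oxysterol hydroxylase, at 2.28. Mup20 lay between 728 and 1952 CPM in young and between 4115 and 7060 CPM in old libraries. The Mup genes are close copies of each other, so the share of reads among them is uncertain.

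Of 22 other female-biased genes tested, among 25 listed, 18 were lower at 6 months and 1, the neurotrophin receptor gene Ntrk2, was higher (2.64), against 10.5% and 12.1% of all genes, with a median log2 fold change of -2.95. The 4 of smallest p were the P450 genes Cyp2c40 at -5.38, Cyp2c69 at -5.96 and Cyp2b9 at -7.30, and Slc22a26, of a family of organic anion transporters, at -4.68. Cyp2c40 lay between 129 and 349 CPM in young and between 3.48 and 6.86 CPM in old libraries. Like Hao2, these genes were thus read in male mice at 1 month and were low at 6 months. The old median of Cyp2b9, 0.234 CPM, was below the filter level of 0.383 CPM. How many listed genes were in the test through young libraries alone was not counted, and for such genes the calls are not independent of the filter. Copies within the Cyp2c and Cyp2b families may share reads.

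Among 10 fetal and juvenile genes tested of 12 listed, 7 were lower at 6 months and none higher, against 10.5% and 12.1% of all genes, with a median log2 fold change of -1.08. The 4 of smallest p were Igf2bp3, an RNA-binding protein gene of fetal liver, at -4.88, H19, an imprinted noncoding RNA, at -5.82, Peg3 at -1.60 and Plagl1 at -1.13. H19 lay between 2.12 and 13.7 CPM in young and between 0.0284 and 0.345 CPM in old libraries. Its highest old library was below the filter level of 0.383 CPM. Like Hao2, H19 was in the test through young libraries alone, so its call is not independent of the filter. In the DEN comparisons and the differences in response, none of the genes of these 4 lists passed by edgeR. At most 0.319% of all genes passed in any of these comparisons, so this bears little on the lists.

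**Figure D5:**
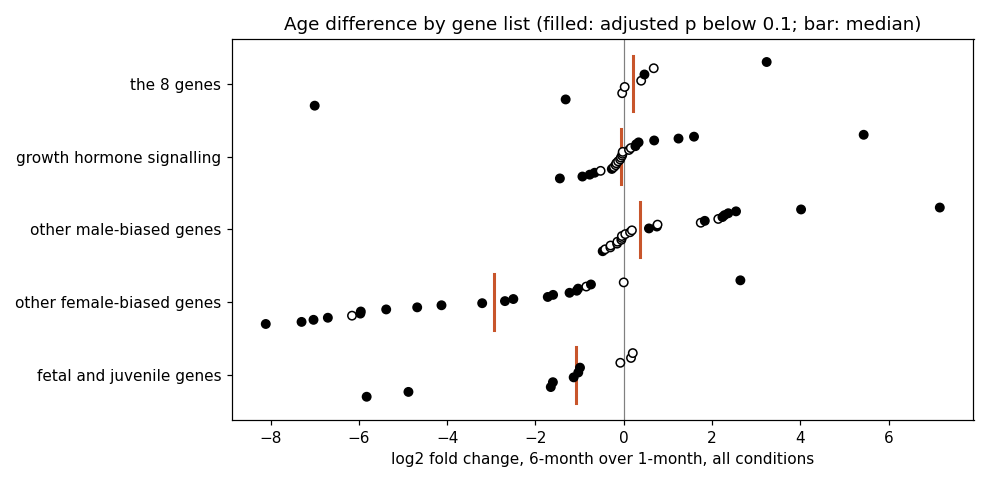
Log2 fold change of 6-month-old over 1-month-old liver over all conditions (horizontal) for the 8 genes and the 4 lists (vertical), with a point for each gene tested, filled where the adjusted p was below 0.1, and a bar at the median. The median lies at -2.95 for the other female-biased genes and at 0.38 for the other male-biased genes, with 0.21 for the 8 genes.

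For each of the 8 genes, up to 3 tested genes of most similar profile are given, taken by Pearson r of log2 CPM over the 16 libraries, which all share the same libraries and ages. Susd4 was much like Serpine2 (0.97) and Tiam2 (0.97), and Hao2 most like Cd209g (0.98), Akr1c18 (0.97) and Cyp2c68 (0.97). Elovl3 was most like Pitx3 (0.95), Asap2 (0.95) and Ube2u (0.94). Cux2 was most like Ptp4a3 (0.91), Pck2 (0.89) and Trmt10c (0.86), and Srd5a1 most like C9 (0.90), Cml5 (0.86) and Nnmt (0.86). Trim24 was most like Cbwd1 (0.89), Wdr43 (0.88) and Ywhag (0.86), and Hsd3b5 most like Gpx6 (0.83), Cela1 (0.83) and Arv1 (0.82). Bcl6 had the lowest values, with Brox (0.77), Arl2bp (0.68) and Fbxw8 (0.68). Between Susd4 and Hao2 the r was -0.96 over 16 libraries, but -0.69 within the 8 young and 0.42 within the 8 old libraries.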

How the data were processed

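RNA of 16 liver pools was sequenced (Illumina, TruSeq RNA). The authors mapped reads with TopHat 2.0.13 to GRCm38 (Ensembl annotation). They deposited a gene table of raw counts, beside 16 columns of normalized counts that were not used here. For the counting program and strand setting: not given in the sources used here. Genes were tested with edgeR 4.0.16 (R 4.3.3) in a quasi-likelihood fit of 6 group means over all 16 libraries, with TMM scaling, filterByExpr and Benjamini-Hochberg adjustment over 15684 genes, called at an adjusted p below 0.1. CPM used TMM-scaled totals, and log2 CPM a prior count of 2. Steps were tested on simulated data. Genes were named by rule: all 8 genes, up to 4 per list by smallest p among age calls, and the 3 of highest r per gene, with 1 gene named by the rule not reported here. Members and lists were chosen with earlier results of these data known. The clock slope test was added after seeing the data. Alternatives were DESeq2 1.42.0, RLE scaling, no filter, only the groups compared, a replicate block, the clock score as a covariate, and libraries left out. The deposited labels do not say whether pools were separate experiments, so p-values measure the spread between pools. The labels give the dose in mg/kg.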

Additional observations from a re-analysis of the deposited data

Results flagged for a closer look

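Of the 8 genes at each of 2 days, 3 had DEN levels on opposite sides of the controls at the 2 ages. In these, every DEN library of an age lay beyond both of its controls. How many of all genes meet this rule was not counted, so the 3 cases are a description only. The difference itself was tested with edgeR and did not pass for any of them. Bcl6 at day 2 was above the controls in 1-month-old and below them in 6-month-old mice, a difference of -2.55 on the log2 scale (adjusted p = 0.943). Srd5a1 at day 6 was higher than controls in young and lower in old mice, a difference of -1.14 (adjusted p = 0.866). Hao2 at day 6 was lower than controls in young and higher in old mice, a difference of 3.36 (adjusted p = 1) that rests on 1 to 8 counts in the old libraries.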

How the results depend on the processing

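The age calls of Susd4 and Hao2 kept their direction and their side of the threshold under every alternative run. Without the filter on low counts (28129 genes) edgeR called 5 of the 8 genes for age over all conditions, among 3578 of all genes. For age it called 4 in controls (among 794) and 5 at day 2 (among 1372). It called 3 for DEN day 6 in young mice (among 49) and 1 for DEN day 2 in old mice (among 135). For day 6 against day 2 in 1-month-old mice it called 2 (among 86). The differences in response at day 2, day 6 and jointly gave 1, 2 and 2, among 23, 22 and 48. Under DESeq2, 1 gene, Srd5a1, was called at day 6 and for day 6 against day 2 in 1-month-old mice, for the difference in response at day 6 and jointly. The calls over all genes there numbered 19, 31, 11 and 16. With only the groups compared, Srd5a1 lost its age calls in controls and at day 2. In that setting 1 gene, Bcl6, was called at day 2 in 6-month-old mice, among 63 of 15142 genes. The causes were not tested. Leaving out each DEN library gave 4 to 5 age calls over all conditions, among 2941 to 4212 of all genes. It gave 3 to 4 in controls (among 337 to 456), 2 to 3 at day 2 (among 385 to 2259) and 2 at day 6 (among 247 to 766). In each other comparison it gave 0. The calls over all genes thus moved as well, so steady counts bear little on the 8 genes. Fits without a control keep 1 library in its group and are not counted here. The age difference of Elovl3 at day 2 ran from -0.31, without 6-month-old DEN day 2 replicate 3, to 3.58 when libraries were left out. Same-numbered libraries of different groups did not deviate together in every pair, so the numbers were not taken as pairs. Correlations ran from -0.30 to 0.59, with medians of 0.18, -0.0036 and 0.13 for numbers 1, 2 and 3. With a replicate block 4, 3, 3 and 2 age calls and 0 others were made. All genes gave 3807, 516, 1088 and 761 age calls there. Among 28 pairs of gene and comparison that passed somewhere, 12 passed in the reported fit, and 602 of 638 alternative values kept direction and side. Low counts of Hao2 at 6 months and of Cux2 limit their precision.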
